A study of Mus musculus with 9 samples.

Results

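The cytoplasmic ribosomal protein genes were taken as every row of the expression table whose symbol begins with Rpl or Rps, with or without the p of the stalk proteins, followed by a number and at most a short suffix. This gave 85 of 38195 symbols, 50 of the large subunit and 35 of the small subunit. 10 of the 85 are paralogs or copies of a main gene (Rpl3l, Rpl7l1, Rpl10l, Rpl22l1, Rpl39l, Rps27l, Rps12l1, Rps12l2, Rps3a2 and Rps3a3), and the other 75 are called main genes here. The GENCODE annotation marks Rps12l1, Rps3a2 and Rps3a3 as processed pseudogenes, and Rps12l2 had no entry there. Rpl13 was not analysed here.

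The tissue was the hypothalamus of E12.5 mouse embryos of the outbred stock CD-1, with no treatment or allele named in the labels. Slices were dissected into the ventricular zone (VZ), the medial mantle zone (mMZ) and the lateral mantle zone (lMZ), with 3 RNA-seq libraries of each. The study's design was a search for genes particular to a region of the developing hypothalamus. The labels do not tell if replicate libraries were made from separate embryos, so the p-values below measure only the spread between these libraries, which may be technical.

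Each ribosomal protein is present once, or a few times, in every ribosome, and the proteins of both subunits are needed in fixed proportion. In mammals their mRNAs begin with a run of pyrimidines, the terminal oligopyrimidine tract, through which mTOR signalling and Larp1 control their translation together. Growing and dividing cells, such as the neural progenitors that line the ventricle, make new ribosomes, and several ribosomal proteins also bind Mdm2, the ligase that limits p53, when assembly is disturbed.

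Ribosomal protein genes were among the abundant mRNAs of all 9 libraries, and they took a larger share of the summed FPKM in the VZ than in the lMZ. The deposited unit is FPKM, a fragment count scaled by transcript length and library total, so levels of different genes are compared per length. The 85 genes together made up 7.70%, 8.07% and 8.71% of the summed FPKM in VZ replicates 1, 2 and 3. They made up 7.31%, 6.73% and 6.39% in the mMZ, and 6.11%, 4.88% and 6.51% in the lMZ. All 3 VZ libraries were above the other 6 in this share, while the mMZ and lMZ ranges overlapped. The summed FPKM of all genes also varied, from 400900 in VZ replicate 1 to 547200 in lMZ replicate 2. The family's own sum was 30880, 35770 and 41780 FPKM in the VZ. It was 32880, 31460 and 30190 in the mMZ and 32020, 26680 and 29480 in the lMZ, so the zones overlapped in the sum. In bulk tissue, fewer cells with a high level and less of the RNA in each cell cannot be told apart.

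82 of the 85 genes had at least 1 FPKM in at least 3 libraries and were tested, 47 of the large and 35 of the small subunit. The 3 others were paralogs of the large subunit. Rpl10l and Rpl39l were listed at 0 in every library, and Rpl3l had 0.251 FPKM in VZ replicate 2 and was listed at 0 elsewhere. No main gene was listed at 0 in any library.

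The median of the tested large subunit genes was 349.5, 378.9 and 451.8 FPKM in the VZ libraries, 370.2, 343.8 and 355.9 in the mMZ and 364.7, 315.0 and 332.5 in the lMZ. The median of the small subunit genes was 414.7, 464.3 and 576.3 FPKM in the VZ, 423.0, 401.3 and 410.1 in the mMZ and 398.7, 338.2 and 378.6 in the lMZ. VZ replicate 3 stood above all other libraries and lMZ replicate 2 below all others, for both subunits. The small subunit median exceeded the large subunit median in every library. On the log2 scale the excess was 0.30 ± 0.05 (SD, n = 3) in the VZ, 0.21 ± 0.02 in the mMZ and 0.14 ± 0.04 in the lMZ, and the libraries of the 3 zones did not overlap in this value.

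**Figure D1:**
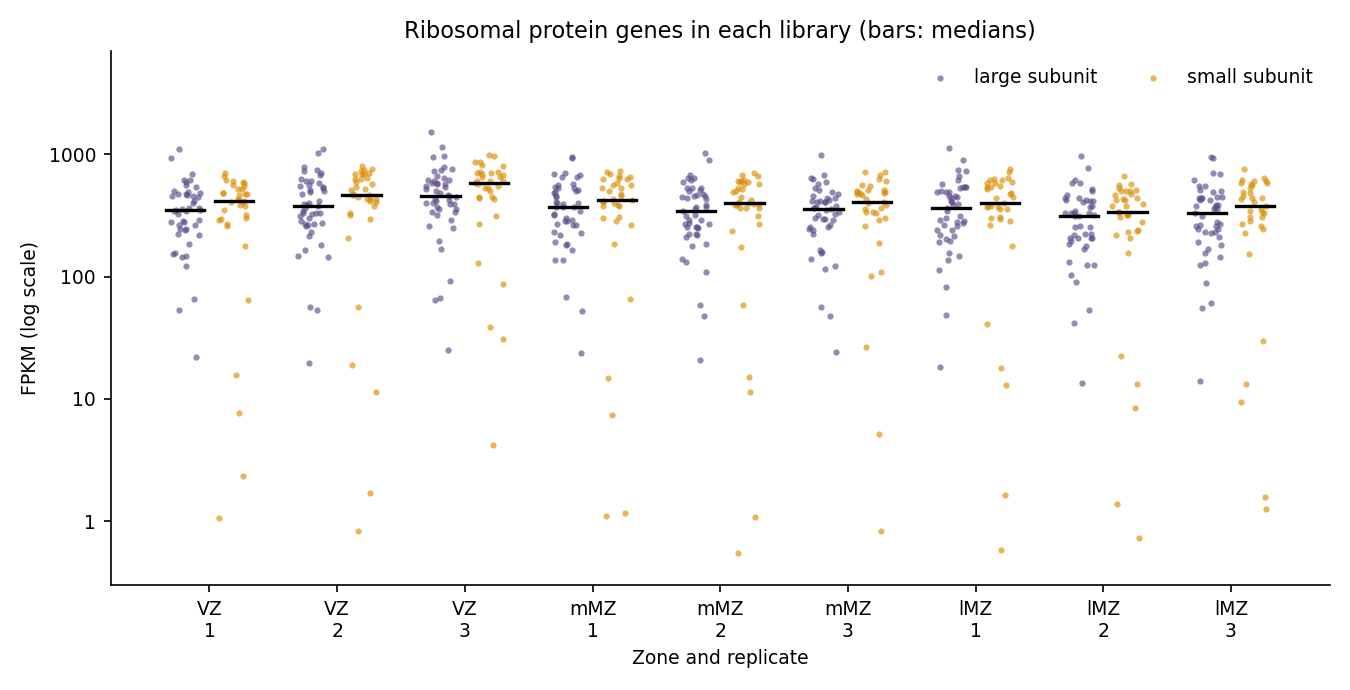
FPKM (log axis) of the 82 tested ribosomal protein genes in each of the 9 libraries, with large and small subunit genes apart, each point a gene and each black bar the median; values of 0 are not drawn. The small subunit bar lies above the large subunit bar in every library, and the highest bars are those of VZ replicate 3.

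Levels differed more among large than among small subunit genes. Over the 9 libraries, the means of the 45 main genes of the large subunit ran from 53.2 FPKM for Rpl29 to 992 for Rpl13a, an 18.6-fold range with a median of 370.6. The 30 main genes of the small subunit ran from 187 for Rps18 to 713 for Rps15, a 3.8-fold range with a median of 469. Rpl13a was the highest main gene in 6 libraries and Rpl41, which encodes a very short basic peptide, in mMZ replicate 3 and lMZ replicates 1 and 2. Rpl29 was the lowest in every library. The other high members did not pass between VZ and lMZ, with 0.03 ± 0.15 for Rpl41 (limma adjusted p = 0.894), 0.24 ± 0.16 for Rpl32 (0.307) and 0.30 ± 0.17 for Rps15 (0.231), all on the log2 scale.

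Within a library the genes moved together. VZ replicate 3 held the highest of the 9 values for 61 of the 82 genes (36 of the large and 25 of the small subunit), and lMZ replicate 2 held the lowest for 54. Measured against the mean of the other 2 libraries of its zone on the log2 scale, the median gene deviated by 0.33 in VZ replicate 3, with 75 genes above and 7 below. The median deviation was -0.31 in VZ replicate 1, with 77 below, and -0.21 in lMZ replicate 2, with 81 below. Over all tested genes the median deviations of these libraries were 0.03, -0.08 and -0.08. Other tested genes with a mean of at least 100 FPKM are given by transcript length, under 500, 500 to 700, 700 to 1000 and over 1000 bases. Their median deviations were 0.00, 0.26, 0.23 and 0.04 in VZ replicate 3 and -0.15, -0.28, -0.32 and -0.21 in VZ replicate 1. In lMZ replicate 2 they were -0.094, -0.125, -0.030 and -0.060, so part of the shift was shared with other abundant genes.

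Between the VZ and the lMZ, 6 ribosomal protein genes were higher in the VZ and none was lower. They included Rpl26, Rps27l, Rps6, Rps4x and Rpl5, and were found by limma on log2(FPKM + 1) with p adjusted over 14004 genes and a threshold of 0.05. Of all tested genes, 19.6% passed in this comparison and 10.7% passed as higher in the VZ, against 7.32% of the ribosomal protein genes. The mean was higher in the VZ for 78 of 82 genes, and for 30 every VZ library exceeded every lMZ library, 36.6% of the family beside 25.2% of all genes. The reverse separation was found for 0 of them, beside 19.9% of all genes. The median log2 difference was 0.25 for the large and 0.37 for the small subunit, beside 0.05 for all genes. Trimmed mean scaling moved the median of all genes to -0.06, and the medians of the large and small subunit lay 0.18 and 0.29 above it, compared with 0.20 and 0.31 above it without that scaling. With array weights, which let limma weigh each library by its own noise, they lay 0.06 and 0.12 above.

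The count of 6 changed when single libraries were left out, and so did the count of all genes past the threshold, 2750 with all libraries. The family count was 0 without lMZ replicate 2 (all genes 1008), 0 without lMZ replicate 3 (1199) and 1 without lMZ replicate 1 (940). It was 2 without VZ replicate 3 (2388), 2 without mMZ replicate 1 (2121), 2 without mMZ replicate 2 (2051) and 3 without VZ replicate 1 (1194). Without mMZ replicate 3 it was 5 (3035), and without VZ replicate 2 it was 8 (3960).

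**Figure D2:**
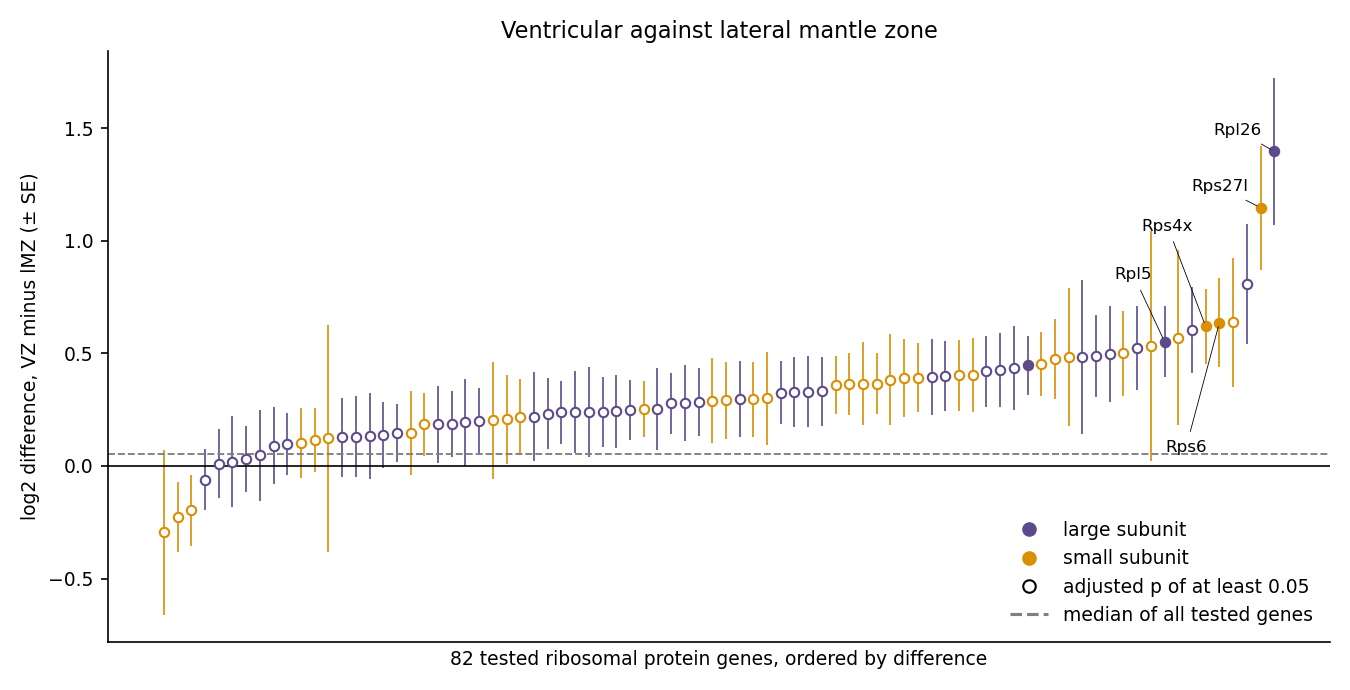
Log2 difference of VZ minus lMZ with its SE (limma, log2(FPKM + 1) scale) for the 82 tested ribosomal protein genes in order of size. Points are coloured by subunit, filled where the adjusted p was under 0.05, and the dashed line is the median of all tested genes, 0.05; 78 of the 82 points lie above 0.

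Rps27l is a paralog of Rps27 and a known target of p53. It lies at chr9:66946086-66949516 on the plus strand of GRCm38 (the assembly called mm10), and its parent Rps27 at chr3:90212522-90213651 on the minus strand. Both coding sequences have 255 bases, stop codon included, and differ at 61 of them, which is an identity of 76.1% with no identical run over 11 bases. No window of 100 bases of the Rps27l transcript occurs in a transcript of another gene, so reads of this gene can be told from those of its parent. The first 120 coding bases from GENCODE M21 are shown because this paralog moved and its parent did not pass, with the differing bases in capitals, 28 in this stretch.
Rps27: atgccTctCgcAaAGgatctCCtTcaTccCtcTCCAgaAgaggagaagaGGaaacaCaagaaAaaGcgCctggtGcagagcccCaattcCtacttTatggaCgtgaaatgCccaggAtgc
Rps27l: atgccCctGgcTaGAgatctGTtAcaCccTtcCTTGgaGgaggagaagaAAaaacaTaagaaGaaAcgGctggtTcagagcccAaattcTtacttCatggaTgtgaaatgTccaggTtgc

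Rps27l was listed at 64.6, 56.6 and 86.9 FPKM in VZ replicates 1, 2 and 3, at 65.3, 58.8 and 101.3 in the mMZ and at 41.0, 22.5 and 30.02 in the lMZ. Every lMZ library was below every library of the VZ and mMZ, and those of the VZ and mMZ overlapped. The log2 difference was 1.147 ± 0.28 (SE) between VZ and lMZ (limma adjusted p = 0.0208) and 1.24 ± 0.28 between mMZ and lMZ (limma adjusted p = 0.037), comparisons that share the lMZ libraries. Leaving out VZ replicate 1, lMZ replicate 2 or lMZ replicate 3 ended the VZ call (limma adjusted p up to 0.0817), and 6 of the 9 libraries were each needed for the mMZ call (up to 0.164).

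Rps27 itself was listed at 433.8, 505.0 and 501.9 FPKM in the VZ, 495.9, 401.3 and 484.6 in the mMZ and 519.8, 393.5 and 434.8 in the lMZ. Its zones overlapped throughout, with a log2 difference of 0.10 ± 0.16 between VZ and lMZ (limma adjusted p = 0.667). Rps27 shared 98.4% of its 100-base windows with other annotated transcripts.

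Rpl26, a large subunit protein near the exit of the peptide tunnel, had the largest difference of the family between VZ and lMZ. A nearly identical copy of it was also listed with FPKM values, and whether the copy is itself expressed was not tested. Rpl26 lies at chr11:68901583-68906989 on the plus strand and was listed at 143, 332 and 359 FPKM in the VZ libraries, 232, 256 and 164 in the mMZ and 114, 90.5 and 89.1 in the lMZ. The lMZ libraries lay below all others. The log2 difference of VZ minus lMZ was 1.40 ± 0.33 (limma adjusted p = 0.0192), and that of mMZ minus lMZ was 1.13 ± 0.33 (limma adjusted p = 0.0942). Leaving out any lMZ library ended the VZ call (limma adjusted p of 0.0504, 0.0711 and 0.0646 without replicates 1, 2 and 3).

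The copy is Gm15772, a processed pseudogene at chr5:3236431-3236868 on the plus strand. Aligned without gaps over 438 bases, it differed from the Rpl26 coding sequence at 2, an identity of 99.5%, with an identical run of 176 bases, longer than the 100-base reads. Bases 169 to 288 of the coding sequence are shown because they hold both differences, in capitals.
Rpl26: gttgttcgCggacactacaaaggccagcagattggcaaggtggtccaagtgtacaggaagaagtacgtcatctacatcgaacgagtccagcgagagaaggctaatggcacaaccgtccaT
Gm15772: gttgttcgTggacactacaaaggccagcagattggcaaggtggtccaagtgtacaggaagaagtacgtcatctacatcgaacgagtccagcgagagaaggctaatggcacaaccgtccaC

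Gm15772 was listed at 352, 268 and 284 FPKM in the VZ, 299.8, 263 and 425 in the mMZ and 466, 364 and 375 in the lMZ, so it was high in libraries where Rpl26 was low. Over the 9 libraries the coefficient of variation of Rpl26 was 51.5%, and that of Rpl26 plus its 4 copies in the table was 11.9%. With the copies added to their parent genes, an alternative chosen after seeing the data, the VZ minus lMZ difference of Rpl26 was 0.22 ± 0.16 (limma adjusted p = 0.344). The other 5 genes kept their calls in that fit. How the authors' counting divided reads between the gene and its copies was not tested.

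Rps2, a small subunit protein, showed the same exchange without a zone difference. It was listed at 269, 464 and 129 FPKM in the VZ, 264.0, 384 and 109 in the mMZ and 265, 206 and 228 in the lMZ. The pseudogene Rps2-ps13, at chrX:52898588-52899469 on the plus strand, was listed at 190.4, 58.7 and 505 FPKM in the VZ, 214, 80.9 and 244 in the mMZ and 197, 222 and 237 in the lMZ. Rps2 was highest in replicate 2 of the VZ and mMZ and lowest in replicate 3 of both, and the pseudogene was the reverse. The coefficient of variation was 43.6% for Rps2 and 18.9% with its 26 copies added.

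For Rpl30, a small protein of the large subunit, the values were 349.5, 264.8 and 395.9 FPKM in the VZ, 390.0, 269.0 and 290.9 in the mMZ and 238.9, 207.5 and 209.8 in the lMZ. Its 9 copies summed to 10.5 FPKM in VZ replicate 1 and 5.71 in mMZ replicate 1, and to between 87.1 and 187 in the other libraries. The coefficient of variation fell from 24.8% to 14.5% with the copies. Rpl30 did not pass between VZ and lMZ (0.60 ± 0.19, limma adjusted p = 0.0541).

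**Figure D3:**
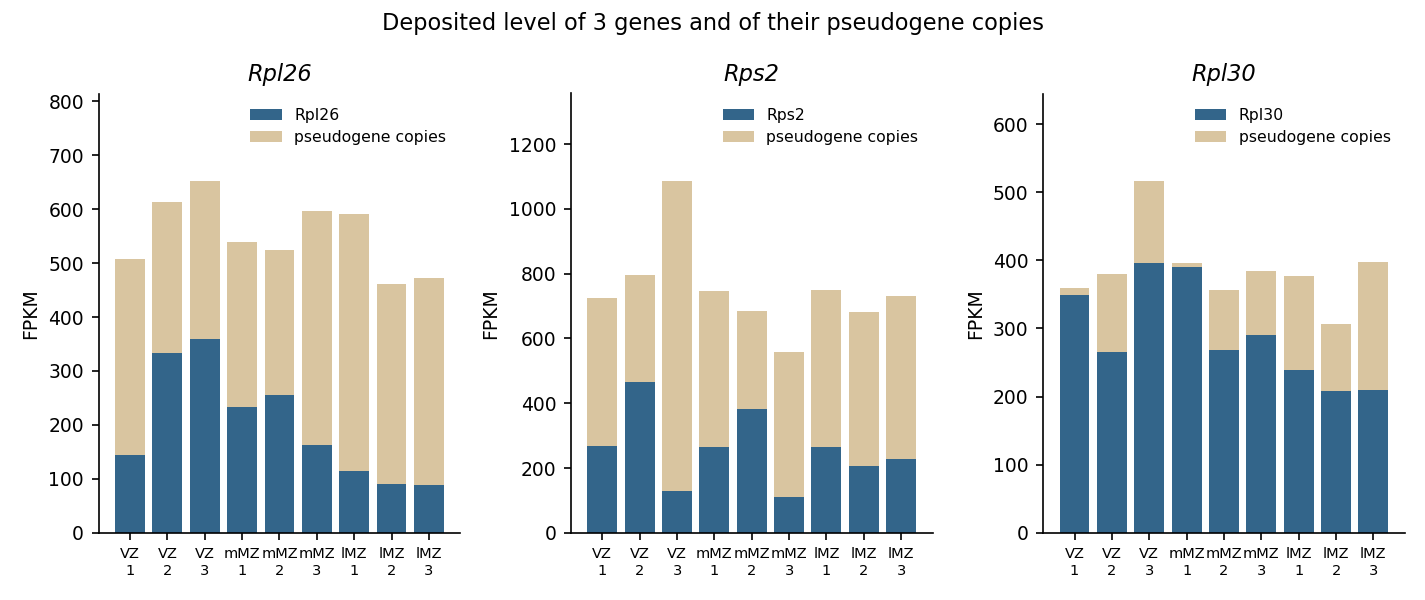
Stacked bars of the deposited FPKM of Rpl26, Rps2 and Rpl30 (dark) and of the summed FPKM of their annotated pseudogene copies (light) in each library. Rpl26 falls to 89.1 to 114 FPKM in the lMZ while the stacks differ less, with a coefficient of variation of 11.9%.

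Such copies are common in the family. Of the 75 main genes, 33 shared over 50% of their 100-base windows with other annotated transcripts, 5 shared none, and the median was 45.0%. 59 main genes had a copy in the table. Adding the copies lowered the coefficient of variation for 20 of these and raised it for 35, so the exchange seen for Rpl26, Rps2 and Rpl30 was not general. The 12 genes with at most 10% shared windows had a median VZ minus lMZ difference of 0.38, and the 36 with over 50% had 0.24.

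Rps6 is the small subunit protein phosphorylated by kinases downstream of mTOR. It lies at chr4:86854660-86857412 on the minus strand and was listed at 414.7, 446.8 and 699.8 FPKM in the VZ, 426.9, 409.4 and 427.8 in the mMZ and 368.2, 304.2 and 306.8 in the lMZ. All lMZ libraries were below all others, and VZ replicate 3 was far above the rest. The log2 difference of VZ minus lMZ was 0.64 ± 0.20 (limma adjusted p = 0.0496), and it was 0.40 without VZ replicate 3 (limma adjusted p = 0.0722). Rps6 shared 83.6% of its windows with other transcripts.

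Rps4x, a small subunit protein encoded on the X chromosome (chrX:102184941-102189394, minus strand), was listed at 420.9, 469.9 and 601.6 FPKM in the VZ, 423.0, 422.8 and 476.1 in the mMZ and 354.1, 279.2 and 330.2 in the lMZ. Here too the lMZ was below both other zones in every library. The difference of VZ minus lMZ was 0.62 ± 0.17 (limma adjusted p = 0.0306).

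Rpl5, which carries the smallest ribosomal RNA into the large subunit and binds Mdm2, lies at chr5:107900502-107909005 on the plus strand. Its values were 343.3, 322.0 and 373.6 FPKM in the VZ, 291.0, 290.0 and 379.8 in the mMZ and 259.6, 205.6 and 244.7 in the lMZ. VZ and mMZ overlapped and the lMZ was below both. The difference of VZ minus lMZ was 0.55 ± 0.16 (limma adjusted p = 0.0378). Of the 9 fits that each left out a library, Rps6 passed in 2, Rpl5 in 2 and Rps4x in 3. The highest limma adjusted p in these fits was 0.151, 0.141 and 0.118, each without lMZ replicate 2.

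**Figure D4:**
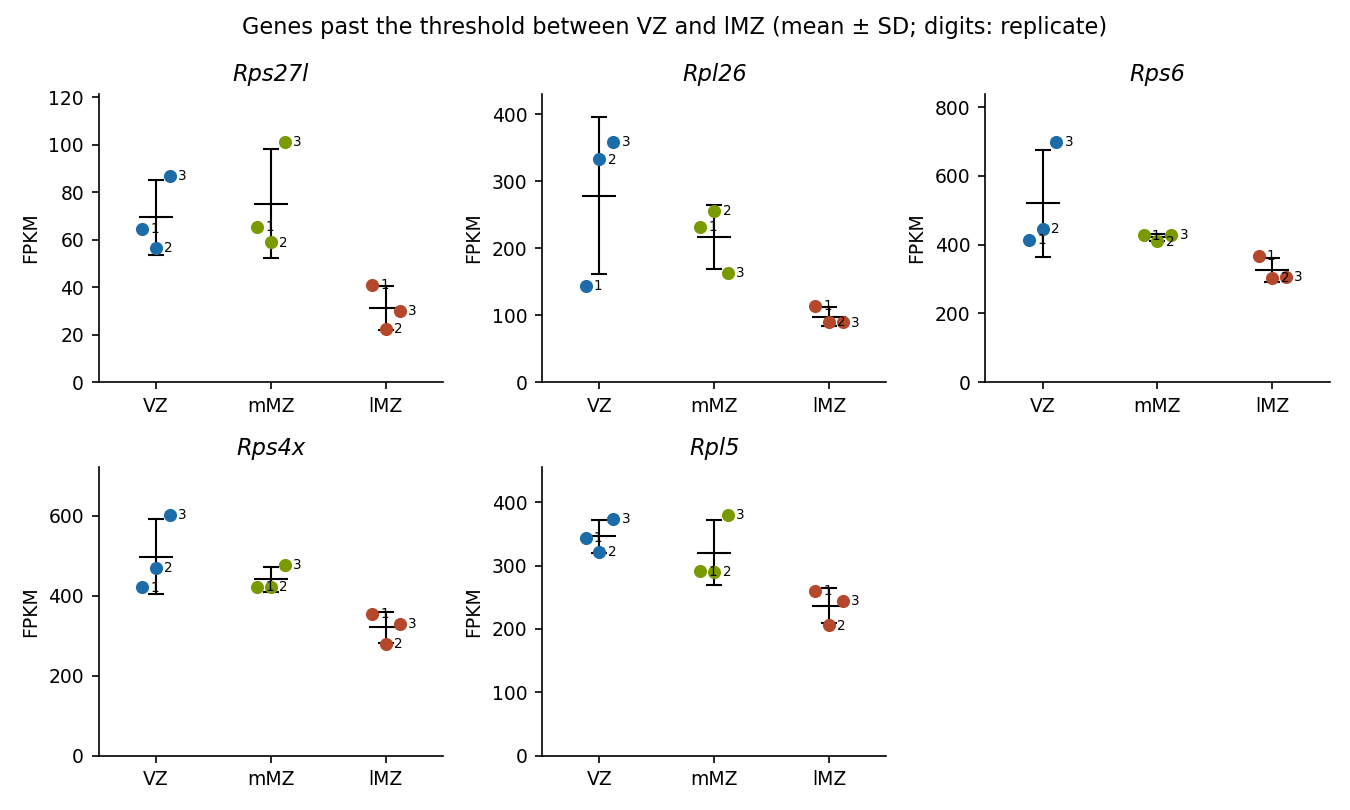
FPKM of 5 genes that passed between VZ and lMZ, by zone, with each library as a point (digits give the replicate) and the mean with SD as a bar and whiskers. In every panel the 3 lMZ points lie below all VZ and mMZ points.

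The start sites of these genes are shown with the letters that recur in promoters of the family. CTTTCC is a short pyrimidine run, and CCGGAAG is the core bound by ETS family factors. Both strands were searched in the RefSeq windows (GRCm38.p6) of 250 bases before to 50 after the start, which held 61 of the 85 genes. CTTTCC stood on the gene's strand in 24 of 61 genes, or 39.3%, beside 16% of all 27025 genes, and on the other strand in 19.7% beside 16.1%. CCGGAAG stood on either strand in 25 of 61, or 41%, beside 9.93%. Below are 70 bases per gene, 40 before the start and 30 from it, with matches in capitals, for the called genes with an entry and for Rps27 as the parent of Rps27l. Their positions are chr9:66946046-66946115 (Rps27l), chr3:90213619-90213688 (Rps27, minus strand), chr11:68901526-68901595 (Rpl26), chrX:102189362-102189431 (Rps4x, minus strand), chr4:86857338-86857407 (Rps6, minus strand) and chr5:107900488-107900557 (Rpl5).
Rps27l: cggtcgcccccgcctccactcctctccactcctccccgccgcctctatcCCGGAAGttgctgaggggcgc
Rps27: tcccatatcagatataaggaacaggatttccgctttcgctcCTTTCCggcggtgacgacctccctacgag
Rpl26: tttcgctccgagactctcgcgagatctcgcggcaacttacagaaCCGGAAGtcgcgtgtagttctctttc
Rps4x: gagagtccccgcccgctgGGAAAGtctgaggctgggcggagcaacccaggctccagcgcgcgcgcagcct
Rps6: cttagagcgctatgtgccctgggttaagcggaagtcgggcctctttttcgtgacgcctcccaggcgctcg
Rpl5: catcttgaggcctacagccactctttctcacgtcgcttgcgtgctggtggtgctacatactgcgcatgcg

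In these windows Rps27l and Rpl26 held CCGGAAG shortly after the RefSeq start, and Rps27 held CTTTCC next to its start. Another RefSeq start of Rps27l, with its 70 bases at chr9:66946373-66946442, held neither motif there. The GENCODE start of Rpl26, at 68901583, lies downstream of the printed match. Rps4x held CTTTCC on the other strand, printed as GGAAAG. Rps6 and Rpl5 held neither motif within the 70 bases. A match is a description of the letters and not of binding.

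Between the VZ and the mMZ no ribosomal protein gene passed, and no gene of all 14004 did (0%). At an unadjusted p under 0.05 there were 4 ribosomal protein genes (Rpl12, Rpl13a, Rpl22 and Rps12l2) and 1661 genes in all. Means were higher in the VZ for 76 of 82 genes. For 7 the zones did not overlap, 8.54% of the family, beside 5.36% of all genes, and for 0 all VZ libraries were below all mMZ libraries, beside 9.3% of all genes. The median log2 difference was 0.14 for the large and 0.18 for the small subunit, beside -0.05 for all genes. With array weights these medians were -0.01 and -0.01, with 40 genes higher and 42 lower, so the direction of the family did not hold under that setting. The median of all genes was then -0.077, and the large and small subunit lay 0.065 and 0.068 above it. Without VZ replicate 3 the medians were 0.07 and 0.07, beside -0.07 for all genes.

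Between the mMZ and the lMZ, Rps27l alone passed, 1.22% of the family, while 4.12% of all genes passed and 3.58% passed as higher in the mMZ. Of all 577 genes past the threshold, 501 were higher in the mMZ, and with quantile normalization 527 of 791. The median log2 difference was 0.09 for the large and 0.15 for the small subunit, beside 0.10 for all genes. Trimmed mean scaling turned the large subunit to -0.05 and left the small at 0.01, with 32 genes higher and 50 lower in place of 64 and 18, and it moved the median of all genes to -0.02. No direction for the family can be given in this comparison.

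Separation of the libraries was found in both directions. For 20 genes all mMZ libraries exceeded all lMZ libraries, or 24.4% beside 25.7% of all genes. For 3 genes of the small subunit all mMZ libraries were below all lMZ libraries, a separation found in 14.8% of all genes. They were Rps7, Rps29 and Rps12l2, named after their values were seen. Rps12l2 was near the floor, at 1.166, 1.077 and 0 FPKM in the mMZ and 1.635, 1.387 and 1.271 in the lMZ. Rps7, another Mdm2-binding protein, was listed at 316, 403 and 446 FPKM in the VZ, 377, 366 and 336 in the mMZ and 483, 419 and 452 in the lMZ. Its mMZ minus lMZ difference was -0.33 ± 0.16 (limma adjusted p = 0.271). Rps29 was -0.28 ± 0.16 (limma adjusted p = 0.347). With its pseudogene copies added, Rps7 was 484.0, 455.9 and 425.2 FPKM in the mMZ and 549.3, 441.5 and 489.9 in the lMZ. These sums overlapped between the zones, while those of Rps29 and its copy did not.

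Genes used as references in quantitative PCR did not pass in any comparison, but their VZ means were the highest of the 3 zones. Rplp0, the stalk protein, was 596 ± 48.8 FPKM (SD, n = 3) in the VZ, 552 ± 22.8 in the mMZ and 502 ± 38.5 in the lMZ. Rpl19 was 513 ± 59.2, 454 ± 32.9 and 447 ± 48.2 in the same order. Rps18 was 218 ± 47.1, 182 ± 8.57 and 162 ± 13.2, with all VZ libraries above all lMZ libraries.

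Rpl13a had the widest difference of these references. It was listed at 1107, 1099 and 1505 FPKM in the VZ, 941, 1024 and 642 in the mMZ and 890.4, 775 and 944 in the lMZ. The VZ lay above both mantle zones in every library, with a VZ minus lMZ difference of 0.50 ± 0.21 (limma adjusted p = 0.125). Rpl10, which joins the large subunit late in its maturation, was 668 ± 96.9 in the VZ, 576 ± 91.1 in the mMZ and 540 ± 36.7 in the lMZ (0.30 ± 0.17, limma adjusted p = 0.239).

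Among the other paralogs, Rpl22l1 was at a level like that of Rps27l, at 63.1 ± 5.51, 57.9 ± 9.84 and 63.4 ± 15.9 FPKM in VZ, mMZ and lMZ, with a VZ minus lMZ difference of 0.02 ± 0.20 (limma adjusted p = 0.959). Its parent Rpl22 was listed at 246, 261 and 517 in the VZ, 219, 210 and 156 in the mMZ and 192, 177 and 180.0 in the lMZ. The VZ was above the other zones throughout, with VZ replicate 3 far above its partners (VZ minus lMZ 0.81 ± 0.27, limma adjusted p = 0.0607). Without both shallow libraries Rpl22 passed at 0.47 (limma adjusted p = 0.018).

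Rpl7l1, a nucleolar relative of Rpl7, was 22.2 ± 2.65 FPKM in the VZ, 23.0 ± 1.75 in the mMZ and 15.2 ± 2.57 in the lMZ. All lMZ libraries were below the others, but neither difference passed (VZ minus lMZ 0.52 ± 0.19, limma adjusted p = 0.0757). Rpl7 was 547 ± 91.7, 496 ± 36.3 and 406 ± 39.9. The parents Rpl3 and Rpl39 were 291 ± 58.2 and 219.8 ± 37.8 in the VZ and 244 ± 29.0 and 191 ± 22.9 in the lMZ, and their libraries overlapped.

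The lowest tested members were the pseudogenes and Rps12l2. Rps3a3 stayed between 0 and 1.58 FPKM and Rps12l2 between 0 and 4.21. Rps12l1 was listed at 38.4 FPKM in VZ replicate 3 and between 5.20 and 13.1 elsewhere, and Rps3a2 ran from 13.3 to 31.0. None of the 4 passed in any comparison. All windows of Rps12l1 occur in other transcripts.

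Ribosomal protein mRNAs are short, and 2 libraries were shallow. 1 more fragment raises a gene's FPKM by a fixed step, and the steps among low values implied about 264477 fragments in VZ replicate 3 and 543351 in mMZ replicate 3, against 4437096 to 8758284 in the other 7. This is an estimate of relative depth, with 64.1% to 69.7% of low values within 0.1 of a whole step. The median main gene then rested on 106 fragments in VZ replicate 3 and 168 in mMZ replicate 3, against 1310 to 3180 elsewhere. Under 100 fragments stood behind 32 and 21 of the main genes, with the fewest for Rpl29 at 9.84 and 18. Counting alone gives the median gene an SD of 0.14 and 0.11 on the log2 scale in these libraries.

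The spread of the family was wider in the shallow libraries. The SD of the genes' deviations from the other libraries of the zone was 0.42 in VZ replicate 3 and 0.34 in mMZ replicate 3, against 0.10 to 0.27 elsewhere. In VZ replicate 3 it was 0.66 for the 15 tested genes under 500 bases, 0.26 for the 23 of 500 to 700, 0.49 for the 25 of 700 to 1000 and 0.18 for the 18 over 1000 bases. In mMZ replicate 3 it was 0.29, 0.28, 0.40 and 0.25 in the same order. Single genes weighed on these values. The class of 700 to 1000 bases held Rps2, the lowest of the family at -1.45 in VZ replicate 3 and -1.53 in mMZ replicate 3. The class under 500 bases held Rps12l1, the highest in VZ replicate 3 at 1.93. The SD without such genes was not computed, so whether the spread followed length was not settled. The median deviation in VZ replicate 3 was 0.24, 0.38, 0.32 and 0.34 for genes under 500, of 500 to 700, of 700 to 1000 and over 1000 bases, so the rise of the family there was found in every length class. In mMZ replicate 3 it was -0.24, 0.00, -0.06 and 0.03 in the same order. Among all other tested genes, those under 500 bases had a median deviation of -0.39 in VZ replicate 3 and -0.06 in mMZ replicate 3. For the 39 of these short genes with a mean of at least 100 FPKM, it was 0.00 and 0.01.

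**Figure D5:**
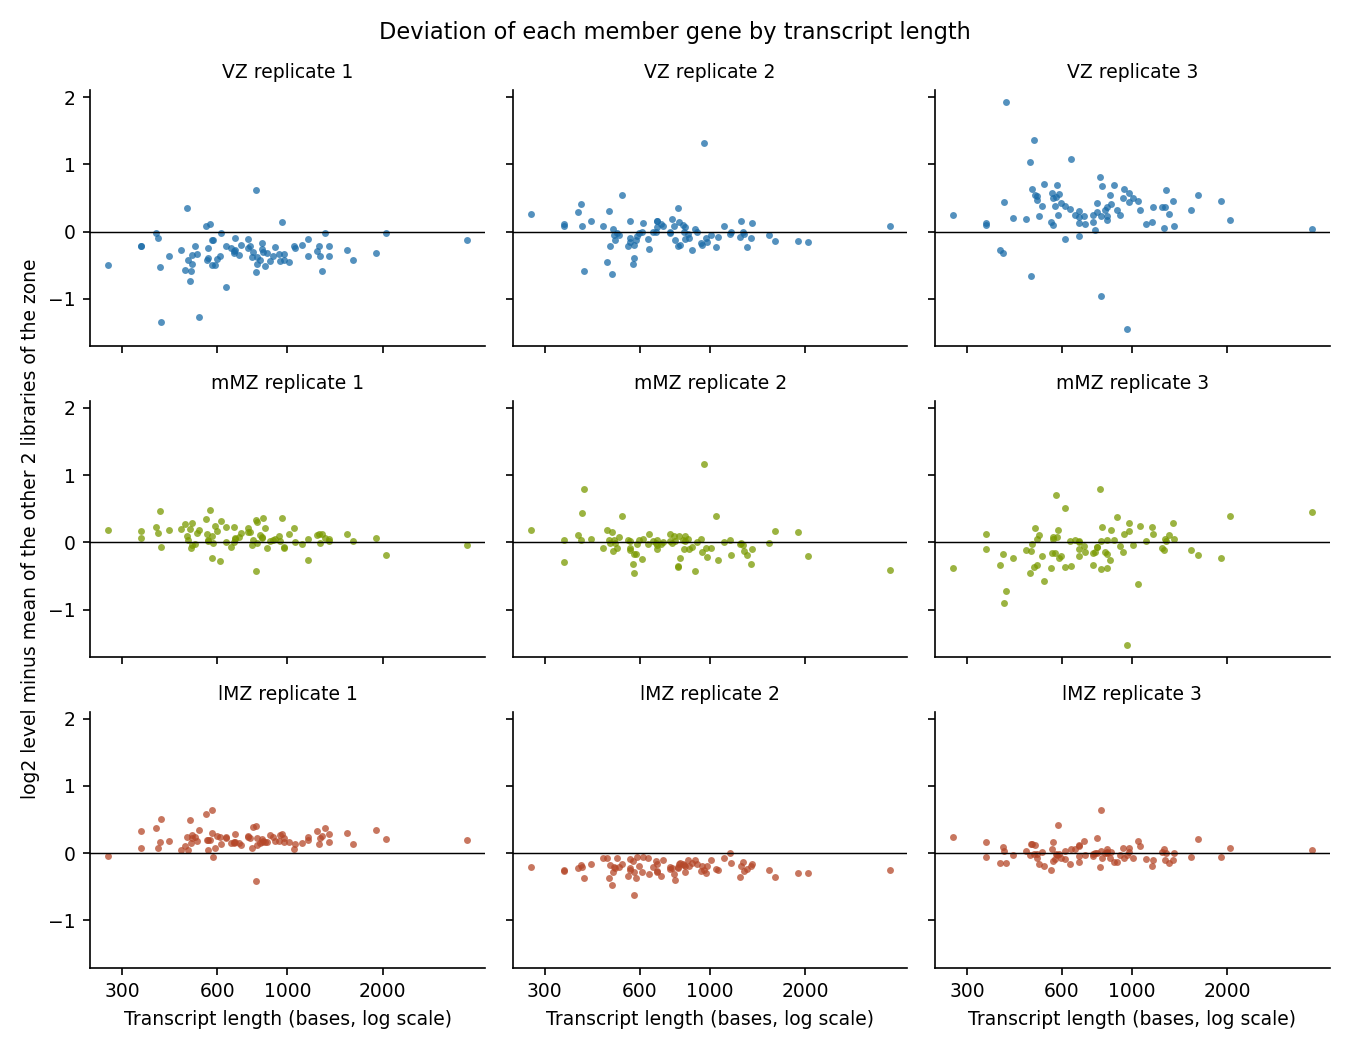
Log2 level of each ribosomal protein gene minus the mean of the other 2 libraries of its zone, against transcript length (log axis), in a panel per library. Points scatter more in VZ replicate 3 and mMZ replicate 3 (SD 0.42 and 0.34), and in VZ replicate 3 most points, 75 of 82, lie above 0.

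A few single genes stood far from their other libraries in VZ replicate 3. Rpl35a, with a transcript of 491 bases, was listed at 411 FPKM in VZ replicate 3, on about 53.4 fragments, and at 125 to 196 in the other libraries. Rps15a, with 640 bases, was listed at 705 FPKM there, on about 119 fragments, and at 239 to 381 elsewhere. Rpl22, with 474 bases, rested on about 64.8 fragments there. Rps2, with 962 bases, was low there, at 129 FPKM on about 32.7 fragments, while Rps6, with 878 bases and about 163 fragments, was high. Without both shallow libraries, 6 ribosomal protein genes passed between VZ and lMZ, 5 of them among the 6 that passed with all libraries, with Rpl22 in place of Rps6. The medians were then 0.17 and 0.21 for the large and small subunit between VZ and lMZ, beside 0.045 for all genes. Between VZ and mMZ they were 0.05 and 0.05, beside -0.059 for all genes.

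A minority of the genes that build ribosomes passed between VZ and lMZ. Of 36 tested genes of ribosome assembly and the nucleolus, 9 were higher in the VZ, beside 10.7% of all genes (Dkc1, Ebna1bp2, Ltv1, Mybbp1a, Nop56, Nop58, Npm1, Rrs1 and Sbds) and none was lower, with a median log2 difference of 0.41. Rrs1, needed for large subunit assembly, was 18.9 ± 11.7 FPKM (SD, n = 3) in the VZ, 10.1 ± 1.84 in the mMZ and 5.68 ± 1.37 in the lMZ (VZ minus lMZ 1.44 ± 0.37, limma adjusted p = 0.0265). Ltv1, a factor of small subunit assembly, differed by 1.29 ± 0.39 (limma adjusted p = 0.0466). None of 18 genes of RNA polymerase I and its factors passed, with a median of 0.16. No gene of either list passed between VZ and mMZ or between mMZ and lMZ.

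Translation factors that passed between VZ and lMZ are to be read beside all tested genes, of which 19.6% passed and 10.7% passed as higher in the VZ. Of 34 initiation factors, 2 were higher in the VZ than in the lMZ, Eif1ax (1.17 ± 0.18, limma adjusted p = 0.0035) and Eif3a (0.55 ± 0.17, limma adjusted p = 0.0463), with a list median of 0.15. Of 11 elongation factors, Eef1d was higher (1.03 ± 0.27, limma adjusted p = 0.0268) and Eef1a2, the form of neurons and muscle, was lower (-3.66 ± 0.96, limma adjusted p = 0.0279). Eef1a2 was listed at 0 in VZ replicate 3. Of 15 other genes with a terminal oligopyrimidine tract, Eef1d, Hnrnpa1 and Nap1l1 were higher, with a median of 0.28. Of 80 mitochondrial ribosomal protein genes, 2 were higher (Mrpl24 and Mrps28) and 1 was lower (Mrps26), with a median of 0.07.

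5 further cytoplasmic ribosomal proteins lie outside the naming rule. Rpsa, the laminin receptor protein of the small subunit, was listed at 339, 394 and 381 FPKM in the VZ, 364, 328 and 266 in the mMZ and 277, 250.3 and 251 in the lMZ (VZ minus lMZ 0.51 ± 0.15, limma adjusted p = 0.0397). Its processed pseudogene Rpsa-ps10 was low in VZ replicates 1 and 2 and high in the lMZ. The sum of both was 344.7, 401.9 and 638.6 FPKM in the VZ, 369.6, 333.2 and 484.4 in the mMZ and 493.3, 442.0 and 494.0 in the lMZ, so the VZ and lMZ libraries overlapped in the sum. Gnb2l1, the scaffold protein also called Rack1, was also higher in the VZ (0.51 ± 0.14, limma adjusted p = 0.0348).

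Among 15 genes that control ribosome production, 4 were higher in the VZ than in the lMZ, beside 10.7% of all genes. They were Eif4ebp1, Mdm2, Pdcd4 and Trp53. Trp53, which encodes p53, was listed at 39.4, 36.3 and 47.7 FPKM in the VZ, 32.3, 37.0 and 39.9 in the mMZ and 20.2, 18.1 and 22.1 in the lMZ. Its lMZ libraries were below all others, and its mMZ minus lMZ difference also passed (0.82 ± 0.17, limma adjusted p = 0.0277). Mdm2 was 45.3 ± 16.3 FPKM (SD, n = 3) in the VZ, 36.9 ± 3.27 in the mMZ and 21.3 ± 4.84 in the lMZ (VZ minus lMZ 1.02 ± 0.26, limma adjusted p = 0.0251). Cdkn1a, another known target of p53, named after its values were seen, was listed at 2.18, 6.05 and 0 FPKM in the VZ, 3.73, 3.58 and 3.98 in the mMZ and 4.28, 5.88 and 5.78 in the lMZ. Every lMZ library of Cdkn1a was above every mMZ library, while for Trp53, Mdm2 and Rps27l every lMZ library was below every mMZ library. A part of p53 in the Rps27l difference was not tested.

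The zones also differed in the markers of the cells they held, given beside the 19.6% of all tested genes that passed between VZ and lMZ. Of 10 progenitor genes, 9 were higher in the VZ than in the lMZ with a median log2 difference of 4.20, and their summed level was 980 to 2153 FPKM in the VZ, 947 to 1110 in the mMZ and 88.0 to 123.3 in the lMZ. Of 9 neuronal genes, 7 were lower, and their sum was 547 to 1318 FPKM in the VZ, 1270 to 1492 in the mMZ and 1770 to 2031 in the lMZ. Of 8 tested red cell genes, 6 were higher in the VZ than in the lMZ, with sums of 2406 to 2831, 1705 to 3173 and 416 to 774 FPKM in VZ, mMZ and lMZ, and the embryonic globin gene Hbb-bh1 was listed at 0 in lMZ replicate 2. Of 8 microglia genes, Csf1r and C1qa were lower in the VZ, with sums of 14.1 to 24.7, 12.6 to 29.8 and 38.3 to 53.4. None of 8 endothelial genes passed, with sums of 10.9 to 62.0, 25.9 to 74.8 and 18.6 to 51.0, and 5 of the 8 were listed at 0 in VZ replicate 3. Of 5 hypothalamic regulators, Rax was higher in the VZ and listed at 0 in all lMZ libraries, and Otp was lower in the VZ. The part of these cell types in the ribosomal protein differences was not tested.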

How the data were processed

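RNA was measured in 9 libraries, 3 each of the ventricular, medial mantle and lateral mantle zone, grouped by the structure named in the labels. The authors deposited FPKM values, 1 per gene and library. Bowtie2 2.1.0 and the mm10 build are named per the submitters' processing notes, and the program behind the FPKM was not given in the sources used here. From 38370 rows, 42 exact duplicates and 133 more that repeated a symbol were left out, with 0 ribosomal protein rows among them.

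FPKM are not counts, so limma 3.58.1 in R 4.3.3 was fitted to log2(FPKM + 1), with 1 mean per zone over all 9 libraries, an intensity trend and two-sided tests. This scale understates changes of low genes. Genes with at least 1 FPKM in 3 libraries were tested, and p-values were adjusted by the Benjamini-Hochberg method over all 14004 within each comparison. The fit was also run on simulated data with independent noise in each gene and library. The simulated libraries held no shifts shared by many genes and no shallow library, so that run says nothing about calls under such conditions. Lengths, coordinates and windows come from GENCODE M21, which matched 84 of the 85 genes, with the length taken from the shortest basic transcript holding the longest coding sequence. Promoters come from RefSeq on GRCm38.p6. A copy is an annotated pseudogene row sharing an exact 100-base window with a gene.

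The genes and lists were chosen with earlier results of these data known. The genes named are those past the threshold (up to 6 per direction and comparison), the 4 highest and 4 lowest tested genes, paralogs with their parents, 4 reference genes, Rps6 and Rpl10. Others were named after their values were seen. From each supporting list, up to 2 genes that passed and 1 that did not are given with values. Alternatives covered the pseudocount, filter, scaling, length trend, intensity trend, weights, zones in the fit, replicate block, left-out libraries and added copies. The depth of a library is an estimate, so no interval was drawn from it. Values of 1 gene that passed and of 1 gene of a supporting list are not reported here.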

Additional observations from a re-analysis of the deposited data

How the results depend on the processing

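Depth limits single genes in VZ replicate 3 and mMZ replicate 3, and with 3 libraries a zone most calls lay near the threshold. Over the named genes, 1697 of 1779 alternative values kept their side of the threshold, 62 lost and 20 gained a call. The sign of the difference turned in 108, of which 18 were with array weights, and 0 of these had passed the threshold with or without the alternative. Medians of log2 differences are given for the large and then the small subunit.

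Between VZ and mMZ, all genes past the threshold numbered 3 with 1 FPKM required in all 9 libraries, 9 with quantile normalization and 2761 with array weights, compared with 0. Array weights gave 1 ribosomal protein gene (Rps12l2) and medians of -0.012 and -0.009, beside -0.077 for all genes. Leaving out single libraries gave 0 to 566 genes (566 without VZ replicate 2) and 0 ribosomal protein genes.

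Between VZ and lMZ, the 6 ribosomal protein genes became 2 with no filter, 12 with quantile normalization, 2 with no intensity trend, 14 with array weights (and 1 lower, Rps7) and 2 with only these zones fitted. All genes numbered 6800 with array weights and 1762 with only these zones, compared with 2750, and the medians with array weights were 0.082 and 0.134. Leaving out single libraries gave 0 to 8 ribosomal protein genes and 940 (without lMZ replicate 1) to 3960 (without VZ replicate 2) genes.

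Between mMZ and lMZ, the 1 ribosomal protein gene became 0 with no filter, 0 with no intensity trend, 6 with array weights (and 1 lower, Rps7), 3 with only these zones and 2 without both shallow libraries. All genes numbered 3700 with array weights, 2069 with only these zones, 1651 without both shallow libraries and 1676 when copies were also added, compared with 577. Trimmed mean scaling gave medians of -0.052 and 0.008, and -0.052 and 0.007 when computed without the ribosomal protein genes. Leaving out single libraries gave 0 to 3 ribosomal protein genes and 202 (without lMZ replicate 2) to 1767 (without VZ replicate 3) genes. The cause of these shifts was not tested.

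With the replicate number as a block, 5 ribosomal protein genes passed between VZ and lMZ (Rpl26, Rpl30, Rpl5, Rps27l and Rps4x), 1 between mMZ and lMZ and 0 between VZ and mMZ. Correlations of deviations between libraries of the same number ran from -0.0984 to 0.2486, so the numbers were not treated as pairing.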

Other observations

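Rpsa-ps10, a processed pseudogene of Rpsa at chr3:150072658-150073542 on the minus strand of GRCm38, was listed at 5.78 and 8.14 FPKM in VZ replicates 1 and 2 and at 6.02 and 5.49 in mMZ replicates 1 and 2. It was listed at 258 in VZ replicate 3, at 218 in mMZ replicate 3 and at 217, 192 and 243 in the lMZ libraries. Its level thus fell into separate ranges that did not follow the zones. The gene was picked after its values were seen.

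The ribosomal protein genes also host small nucleolar RNAs, which guide the modification of ribosomal RNA. By position in GENCODE M21, 28 of the 75 main genes held 55 such genes within their span.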
